A study of Homo sapiens with 18 samples.

Results

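The genes described are the subunits of RNA polymerase I, II and III whose symbols begin with POLR1, POLR2 or POLR3 and end in a subunit letter. The rule uses symbols only and found 31 genes among the 23399 in the table, of which 5 are POLR1, 16 POLR2 and 10 POLR3 genes. RNA polymerase I transcribes the large ribosomal RNA precursor in the nucleolus, RNA polymerase II transcribes messenger RNAs, and RNA polymerase III transcribes transfer RNAs, 5S ribosomal RNA and other short RNAs. Each enzyme has a core of large catalytic subunits specific to it, to which smaller subunits are added, and a set of small subunits is common to all of them. The transcription factor Myc is known as an activator of the synthesis of ribosomal RNA and transfer RNA in growing cells. The symbols do not separate the enzymes fully: POLR1C and POLR1D are built into polymerases I and III, and POLR2E, POLR2F, POLR2H, POLR2K and POLR2L into all of them. POLR2J2, POLR2J3 and POLR2J4 are copies of POLR2J, POLR2J4 being annotated as noncoding, and POLR2M binds polymerase II without being a core subunit.

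The subunits were measured by RNA-seq in U2OS-MycER cells, a human osteosarcoma cell line that carries MycER, a fusion of Myc with the estrogen receptor that remains inactive until 4-hydroxytamoxifen (OHT) is given. Cells were transfected with a non-targeting siRNA (siCtrl) or with siRNA against RAD21 (siRAD21), a subunit of the cohesin ring, received 400 nM OHT or ethanol at the same time, and were collected after 24 or 48 h. This gives 8 groups and 18 libraries: siCtrl, siCtrl OHT, siRAD21 and siRAD21 OHT at each time, with 3 libraries of siCtrl and of siCtrl OHT at 48 h and 2 of every other group. All groups are transfected MycER cells, so no parental cell without MycER is among them, and the study's methods call the replicates biological without saying whether they were separate cultures, so that p-values measure the spread between these libraries, which may be partly technical.

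Values are eRPKM, which are RPKM over exons as deposited by the authors, so that reads are scaled to the length of the gene and the depth of the library. A fold change is a difference of group means of log2(eRPKM + 0.5) from a single limma model of all 18 libraries, with p-values adjusted by Benjamini-Hochberg over the 14993 genes whose mean was at least 1 eRPKM. A gene was called higher or lower at an adjusted p below 0.05 with a log2 fold change past 0.5 in either direction. Of the 31 subunit genes, 29 were tested. POLR2J3 had a mean of 0.517 eRPKM and POLR2M one of 0.266 eRPKM in siCtrl cells at 48 h, and both stayed under the limit in every group mean.

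Libraries held 9647501 to 12678599 mapped reads, as recovered from the eRPKM values, and the tested subunit genes had between 62 reads (lowest library of POLR3K) and 2973 reads (highest library of POLR2B). RAD21 was at 93.1 ± 3.96 eRPKM (mean ± SD, n = 3) in siCtrl and 11.2 ± 0.106 (n = 2) in siRAD21 cells at 48 h (log2 fold change -2.99, adjusted p = 2.84e-14, limma). MYC, whose reads cannot be told apart here from those of a MycER transcript, was at 52.3 ± 2.33 eRPKM (n = 3) in siCtrl and 44.9 ± 3.99 (n = 3) in siCtrl OHT cells at 48 h. With siRAD21 the log2 fold change of MYC was -0.25 at 24 h (adjusted p = 0.0146, limma) and 0.12 at 48 h, neither of them called. With OHT in siRAD21 cells it was -0.57 and -0.72, both called lower. The paper reports lower Myc after RAD21 silencing, as mRNA by quantitative RT-PCR and as protein by western blot. In that blot endogenous Myc and MycER are separate bands. The libraries of siRAD21 OHT cells at 48 h differed by less than the sampling noise of their reads (chi-square 0.979 per gene over 11736 genes, against 1.04 to 4.24 for other pairs of a group). They were counted as 1 sample in means, which therefore have no SD, while the model holds both. The p-values of comparisons with this group thus treat it as 2 libraries. The siRAD21 libraries at 24 h, at 1.04, were kept as 2 throughout. The mesenchymal genes VIM, SPARC and COL1A1 were present in every library (14.5 eRPKM or more), COL1A2 was at 0.109 eRPKM or less, and the leukocyte genes PTPRC and CD3E were at most at 0.322 and 0.0817 eRPKM. Since eRPKM is scaled to the depth of each library, fewer cells with an RNA and less of it per cell cannot be told apart.

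The subunit messages differed widely in level. Levels are group means of 3 libraries, with an SD from 0.22 (POLR3E) to 4.005 eRPKM (POLR2H). In siCtrl cells at 48 h the highest were POLR2H (58.6 eRPKM), POLR2B (57.6) and POLR2D (54.5), followed by POLR2G (49.4), POLR2K (48.4), POLR2C (48.2), POLR2L (44) and POLR2I (42.8). Among the polymerase I subunits POLR1E stood at 46.7 and POLR1C at 44.4, above POLR1B (24.0), POLR1A (20.9) and POLR1D (20.7). The polymerase III subunits lay lower, with POLR3D at 36.5 and POLR3C at 30.0, then POLR3K (18.7), POLR3GL (17.2), POLR3E (16.3), POLR3G (16.0), POLR3F (14.9), POLR3A (14.6) and POLR3B (6.80). POLR2E (32.6) and POLR2J (29.7) were intermediate, and POLR2A (11.5), POLR2F (9.80), POLR2J2 (8.13) and POLR2J4 (2.70) were the lowest of the polymerase II subunits tested. Averaged over all libraries, the median subunit was at 31.6 eRPKM for POLR1, 45.3 for POLR2 and 21.5 for POLR3 genes. The message of the largest subunit was among the lower ones of each enzyme. Counts may include exon bases that the annotation used here lists as shared with a neighbour, if the authors counted over the same exons. Among others, such bases numbered up to 1465 for POLR2J4, 1350 for POLR2J3, 1321 for POLR2M and 442 for POLR2J2. For POLR2I they numbered up to 785, beside an exon length of 898 recovered from the values. They numbered up to 751 for POLR3E, 404 for POLR3F, 392 for POLR1C, 352 for POLR3A and 349 for POLR2D. The copies of POLR2J can trade reads, so all these levels are uncertain.

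Start sites were read from RefSeq, which gave a promoter (250 bases before and 50 from the start site on, GRCh38.p14) for 21 of the 31 genes. They were searched on both strands for CACGTG, a palindrome that is the canonical E-box bound by Myc, since many subunits moved with OHT. It was in 3 of 21 promoters (14.3%), against 7.26% of all 35116 promoters of this length. Among the 21317 promoters of symbols in the eRPKM table the share was 8.23%. The promoters of POLR1B, POLR1C and POLR3K, which rose with OHT, did not hold it, and no promoter was given for POLR3G. The 3 stretches of 30 bases that hold CACGTG are shown with the motif in capitals, 5′ to 3′ on the strand of the gene. They are chr10:78029533-78029562 (minus strand), chr1:145823992-145824021 (plus strand) and chr16:22297396-22297425 (plus strand), and the motif begins at -35, -196 and -1 from the start site (position 0).
POLR3A: agaggaagcggaCACGTGggacactctacg
POLR3C: gcccgcgtcggtCACGTGagttggccaggc
POLR3E: cccgctccccccCACGTGtccgccggagtt

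The 200 bases before the start site of POLR3K (chr16:53609-53808, minus strand) and the 120 bases from -250 to -131 of POLR1B (chr2:112541786-112541905, plus strand), both genes that rose with OHT, are shown beside them. Neither stretch holds these letters.
POLR3K: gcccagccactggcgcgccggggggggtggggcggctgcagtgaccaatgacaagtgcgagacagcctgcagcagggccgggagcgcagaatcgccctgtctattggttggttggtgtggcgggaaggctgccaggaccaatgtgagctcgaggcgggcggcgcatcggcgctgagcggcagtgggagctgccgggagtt
POLR1B: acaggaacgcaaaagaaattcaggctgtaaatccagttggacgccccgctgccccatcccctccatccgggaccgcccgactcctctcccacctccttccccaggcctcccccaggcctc

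To ask whether activating MycER changed the subunits, siCtrl OHT cells were compared with siCtrl cells. At 48 h POLR3G, POLR1B, POLR3K and POLR1C rose and POLR3GL fell. This is 4 of 29 subunits called higher, against 7.78% of all genes tested, and 1 lower, against 10.1%. The shift was broader than these calls: 25 of 29 subunits had a fold change above 0, compared with 48.2% of all genes, and the median log2 fold change was 0.30 for the subunits and -0.01 for all genes. By adjusted p alone, with no limit on the fold change, 22 subunits were higher (26.1% of all genes) and 1 lower (27.2% of all genes). The epithelial markers EPCAM, CDH1 and KRT5, used to check the cell type, summed to 12.5 to 15.4 eRPKM in siCtrl OHT and 6.90 to 7.70 in siCtrl cells at 48 h, none of them being at 0 in any library. They did not move alike: in siCtrl and siCtrl OHT cells EPCAM was at 4.65 and 11.5 eRPKM, CDH1 at 0.958 and 1.3, and KRT5, in the other direction, at 1.76 and 1.07. The sum was also higher with OHT at 24 h, at 10.98 to 11.9 against 5.92 to 6.29 eRPKM, and in siRAD21 cells at 48 h, at 7.87 to 8.15 against 4.38 to 5.95. The part of these markers in the results on OHT was not tested.

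**Figure D1:**
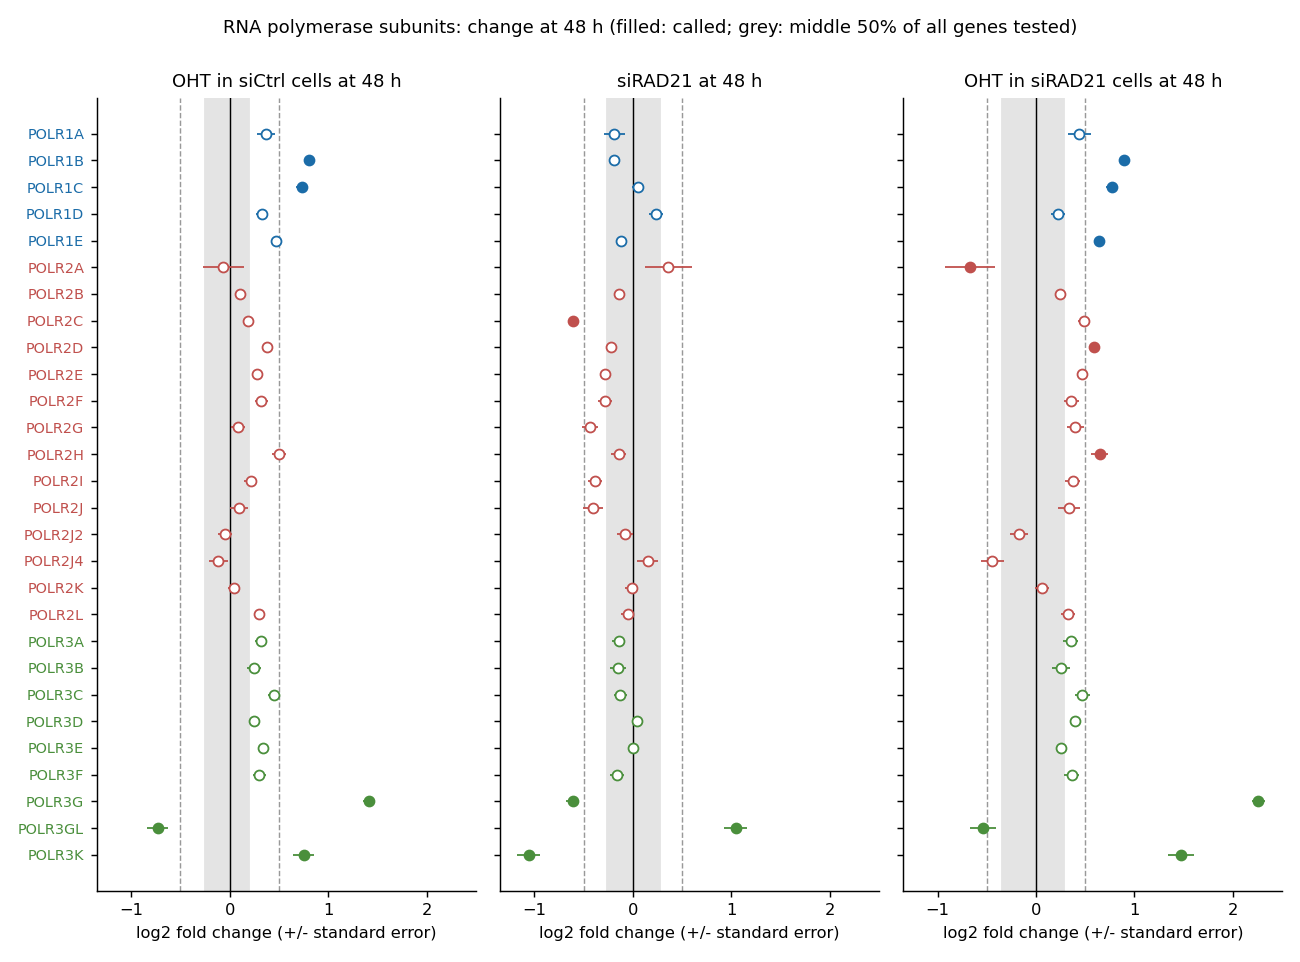
Log2 fold change with its standard error of the tested subunits named in the text (rows, coloured by POLR1, POLR2 and POLR3) for OHT in siCtrl cells, siRAD21, and OHT in siRAD21 cells at 48 h. Filled points are called, dashed lines mark the limit of 0.5, and the grey band holds the middle 50% of all genes tested. Most lie to the right of 0 in both panels on OHT and to the left of it with siRAD21, and POLR3GL lies opposite to POLR3G in all panels.

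The POLR1 genes moved in one direction. All 5 passed upward on adjusted p alone with OHT at 48 h, with log2 fold changes from 0.33 to 0.80 and a median of 0.47. The 14 POLR2 genes had a median of 0.15, and 8 of them passed on adjusted p alone, all upward, but none reached the limit on the fold change. The 10 POLR3 genes had a median of 0.33, with 9 higher and 1 lower on adjusted p alone. These medians are descriptions, and the difference between the enzymes was not tested. Within the POLR2 genes, the subunits common to all enzymes had a median of 0.30 and those specific to polymerase II one of 0.10. In the same order, POLR2H was at 0.50, POLR2F at 0.32, POLR2L at 0.30, POLR2E at 0.28 and POLR2K at 0.04, against POLR2D at 0.38, POLR2I at 0.22, POLR2C at 0.19, POLR2B at 0.10, POLR2J at 0.09, POLR2G at 0.09 and POLR2A at -0.06 on the log2 scale. The copies POLR2J2 and POLR2J4 had log2 fold changes of -0.05 and -0.12.

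POLR1B, the second largest subunit of polymerase I, was at 22.4, 24.9 and 24.7 eRPKM in the siCtrl libraries at 48 h and at 41.0, 43.2 and 42.4 in siCtrl OHT. In siRAD21 cells at 48 h it was at 21.8 and 20.2 eRPKM, and in siRAD21 OHT cells at 40.2 and 38.9. The libraries with OHT lay well above those without it under both siRNAs, with no overlap. The log2 fold change with OHT was 0.80 (standard error, SE, 0.047, adjusted p = 1.05e-08, limma) in siCtrl and 0.90 (SE 0.058, adjusted p = 2.14e-08, limma) in siRAD21 cells. At 24 h POLR1B was at 29.0 and 30.6 eRPKM in siCtrl, 37.3 and 37.2 in siCtrl OHT, 24.5 and 22.6 in siRAD21 and 34.7 and 33.7 in siRAD21 OHT cells. The groups again did not overlap, but the change was smaller, 0.32 in siCtrl cells (not called) and 0.53 in siRAD21 cells (adjusted p = 1.29e-05, limma), and the latter is 0.47 and no longer called without siRAD21 24 h replicate 2.

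POLR1C, which with POLR1D forms the assembly platform of polymerases I and III, was at 43.9, 46.6 and 42.8 eRPKM in siCtrl and at 69.9, 79.1 and 73.2 in siCtrl OHT cells at 48 h. The siRAD21 libraries held 45.4 and 46.6 eRPKM and the siRAD21 OHT libraries 79.9 and 77.7. Every library with OHT was above every one without it, and siRAD21 against siCtrl gave a log2 fold change of 0.05 (95% interval -0.07 to 0.18). At 24 h it was at 57.2 and 52.6 eRPKM in siCtrl, 71.7 and 72.8 in siCtrl OHT, 51.9 and 49.4 in siRAD21 and 66.2 and 72.9 in siRAD21 OHT cells. The log2 fold change with OHT was 0.73 (SE 0.052, adjusted p = 6.76e-08, limma) at 48 h in siCtrl cells and 0.77 (SE 0.064, adjusted p = 2.29e-07, limma) in siRAD21 cells. Its partner POLR1D had log2 fold changes of 0.33 and 0.22 in these comparisons and was not called.

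POLR1E, a subunit specific to polymerase I that pairs with CD3EAP, was at 45.7, 48.0 and 46.5 eRPKM in siCtrl and at 62.9, 66.9 and 64.7 in siCtrl OHT cells at 48 h. In siRAD21 cells it was at 43.5 and 42.2 eRPKM, and in siRAD21 OHT cells at 67.7 and 66.5. All OHT libraries were higher, by a log2 fold change of 0.47 in siCtrl cells, just under the limit, and of 0.64 (SE 0.049, adjusted p = 1.15e-07, limma) in siRAD21 cells. At 24 h POLR1E was at 50.8 and 47.1 eRPKM in siCtrl, 56.8 and 59.2 in siCtrl OHT, 45.7 and 45.5 in siRAD21 and 55.2 and 60.04 in siRAD21 OHT cells. The libraries with OHT were above those without it under each siRNA, with log2 fold changes of 0.24 and 0.33.

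**Figure D2:**
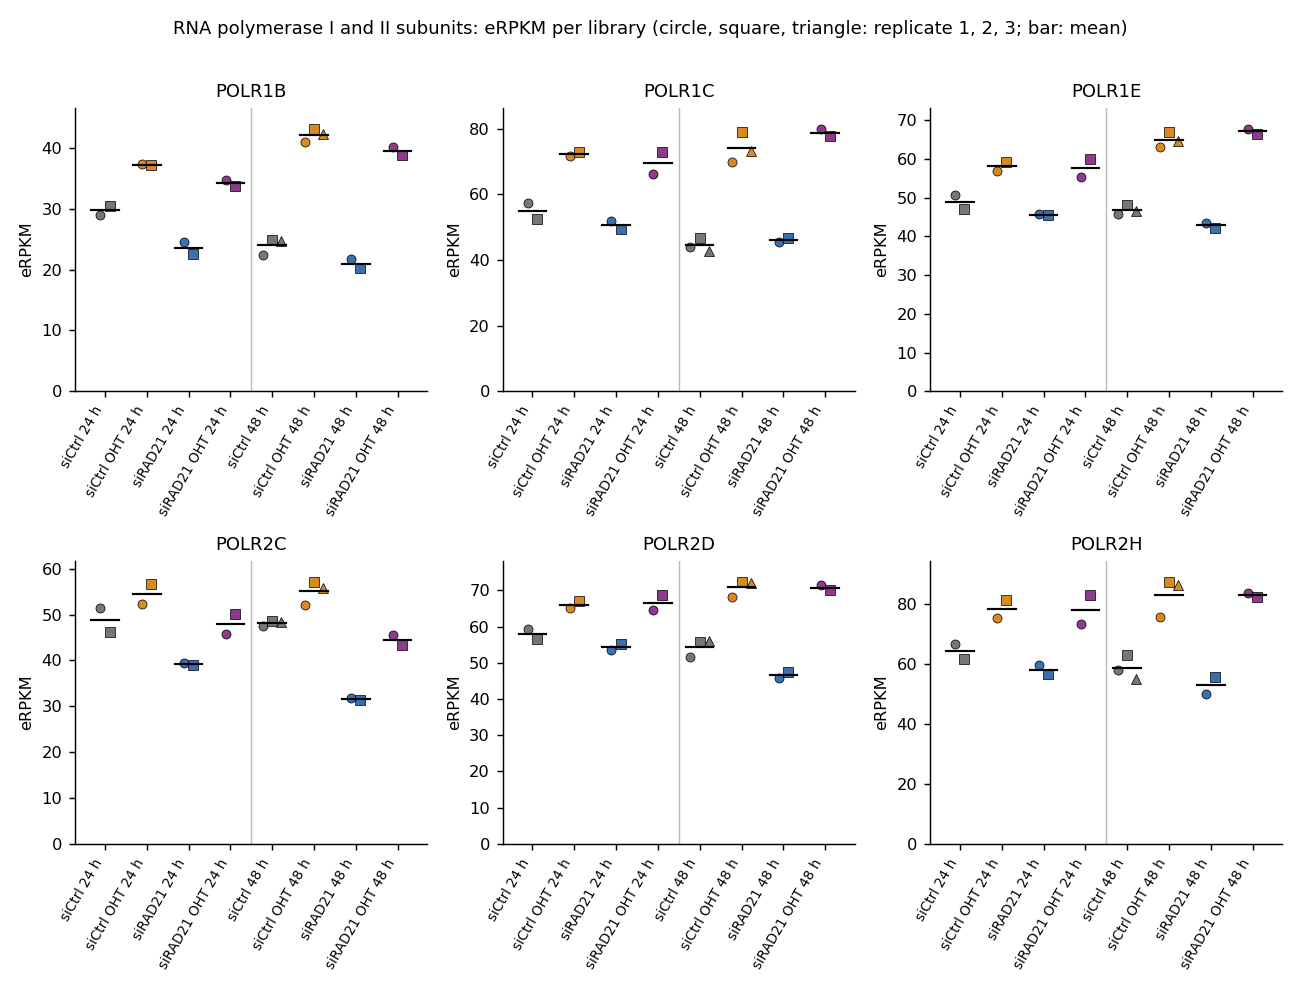
eRPKM in each library of POLR1B, POLR1C, POLR1E, POLR2C, POLR2D and POLR2H in the 8 groups, with 24 h to the left and 48 h to the right of the grey line. Bars are group means, and symbols give the replicate. Orange and purple points (OHT) lie above grey and blue points (no OHT) of the same siRNA at 48 h in every panel, and POLR2C is lowest in siRAD21 cells, at 31.3 and 31.7 eRPKM.

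The subunit with the largest log2 fold change in every comparison on OHT was POLR3G, which is built into polymerase III in place of its paralog POLR3GL. The paralogs are mutually exclusive, and POLR3G is known for high levels in stem cells and transformed cells. POLR3G was at 14.9, 17.1 and 15.9 eRPKM in the siCtrl libraries at 48 h and at 40.4, 43.6 and 46.1 in siCtrl OHT. It was at 9.99 and 10.5 eRPKM in siRAD21 and at 51.8 and 50.2 in siRAD21 OHT cells. The 4 groups at 48 h thus stood apart with no overlap, siRAD21 lowest and siRAD21 OHT highest. OHT raised POLR3G 2.66-fold in siCtrl cells (log2 fold change 1.41, SE 0.057, adjusted p = 5.42e-10, limma), on the log2(eRPKM + 0.5) scale. In siRAD21 cells it rose 4.79-fold (log2 fold change 2.26, SE 0.069, adjusted p = 3.46e-11, limma).

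POLR3G had already risen at 24 h. It was at 18.4 and 19.7 eRPKM in siCtrl, 35.4 and 35.6 in siCtrl OHT, 15.3 and 16.8 in siRAD21 and 37.5 and 37.2 in siRAD21 OHT cells. The libraries with OHT lay far above those without it under both siRNAs, and the log2 fold change was 0.88 (SE 0.069, adjusted p = 1.18e-06, limma) in siCtrl and 1.19 (SE 0.069, adjusted p = 7.01e-08, limma) in siRAD21 cells. POLR3G has a GC content of 34.3%, lower than all but 1.26% of the genes tested. With a trend on GC content and length removed, and under the other 11 settings tried, its change with OHT in siCtrl cells at 48 h ran from 1.31 to 1.52 and stayed called.

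POLR3GL went the other way. At 48 h it was at 14.98, 19.5 and 17.2 eRPKM in siCtrl and at 9.47, 9.88 and 11.1 in siCtrl OHT cells. In siRAD21 cells it was at 33.8 and 37.9 eRPKM, and in siRAD21 OHT cells at 23.3 and 25.7. Libraries of the 4 groups did not overlap, and siRAD21 cells had the highest level. POLR3GL fell with OHT in siCtrl cells (log2 fold change -0.73, SE 0.105, adjusted p = 4.74e-05, limma) and in siRAD21 cells (-0.54, SE 0.129, adjusted p = 2.42e-03, limma), the second call being lost at -0.46 without siRAD21 48 h replicate 2 and at -0.47 without siRAD21 OHT 48 h replicate 1. At 24 h it was at 18.9 and 13.9 eRPKM in siCtrl, 12.4 and 12.3 in siCtrl OHT, 21.7 and 22.1 in siRAD21 and 16.6 and 16.5 in siRAD21 OHT cells. The siCtrl libraries at 24 h were the most unequal of these, and no change of POLR3GL was called at 24 h with all libraries.

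**Figure D3:**
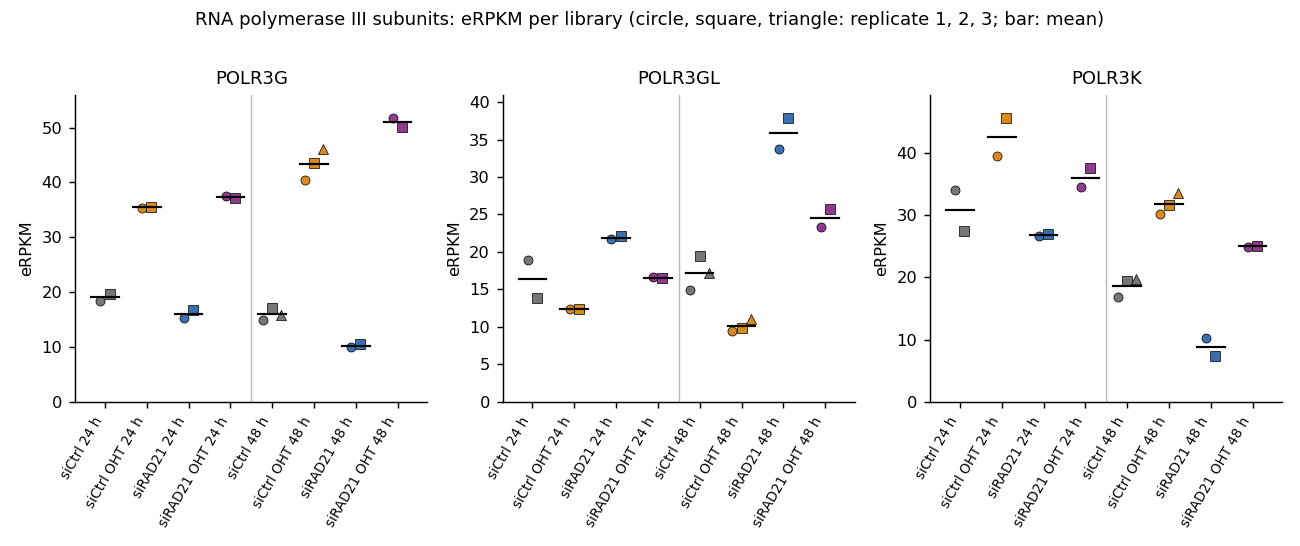
eRPKM of the polymerase III subunits POLR3G, POLR3GL and POLR3K in each library of the 8 groups, with bars for group means and symbols for replicates. At 48 h POLR3G runs from 9.99 in siRAD21 to 51.8 in siRAD21 OHT cells, POLR3GL is highest in siRAD21 cells (33.8 and 37.9), and POLR3K is lowest there (10.2 and 7.38).

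Taken as a share of the sum of both paralogs, POLR3G made up 49.9, 46.7 and 48.1% in the siCtrl libraries at 48 h and 81.0, 81.5 and 80.6% in siCtrl OHT. The share was 22.8 and 21.7% in siRAD21 and 69.0 and 66.1% in siRAD21 OHT cells. POLR3G was thus near the level of POLR3GL in siCtrl cells, the major paralog with OHT and the minor one with siRAD21. The sum of both was 29.9, 36.5 and 33.1 eRPKM in siCtrl and 49.9, 53.5 and 57.1 in siCtrl OHT cells, and it was 43.7 and 48.5 in siRAD21 and 75.1 and 75.9 in siRAD21 OHT cells. At 24 h the share was 49.4 and 58.7% in siCtrl, 74.0 and 74.3% in siCtrl OHT, 41.4 and 43.2% in siRAD21 and 69.3 and 69.2% in siRAD21 OHT cells. The order of the groups was the same as at 48 h, with siRAD21 nearer to siCtrl. The share itself was not tested. Each paralog shares exon bases with a neighbour, POLR3G 260 with MBLAC2 and POLR3GL 382 with a gene listed only by an identifier.

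**Figure D4:**
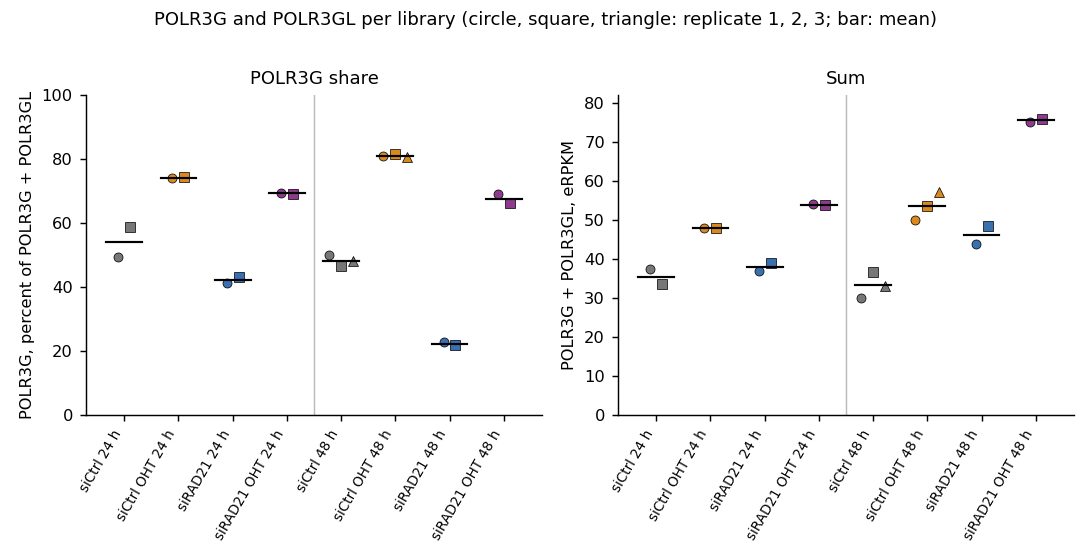
Left, POLR3G in percent of POLR3G plus POLR3GL, and right, the sum of both in eRPKM, for each library of the 8 groups. The share was 80.6 to 81.5% in siCtrl OHT and 21.7 to 22.8% in siRAD21 cells at 48 h, while the sum was highest, at 75.1 and 75.9 eRPKM, in siRAD21 OHT cells.

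POLR3K, a small subunit that takes part in RNA cleavage and termination by polymerase III, was at 16.8, 19.4 and 19.8 eRPKM in siCtrl and at 30.2, 31.6 and 33.5 in siCtrl OHT cells at 48 h. It was at 10.2 and 7.38 eRPKM in siRAD21 and at 24.9 and 25.1 in siRAD21 OHT cells. Each OHT group was above its group without OHT, and siRAD21 cells were lowest, with no overlap. The log2 fold change with OHT was 0.75 (SE 0.106, adjusted p = 3.87e-05, limma) in siCtrl and 1.47 (SE 0.129, adjusted p = 3.98e-07, limma) in siRAD21 cells. At 24 h POLR3K was at 34.1 and 27.5 eRPKM in siCtrl, 39.6 and 45.7 in siCtrl OHT, 26.6 and 26.9 in siRAD21 and 34.6 and 37.5 in siRAD21 OHT cells. These are higher levels than at 48 h in every group, and the changes at 24 h (0.47 with OHT in siCtrl cells) were not called in the main fit. That with OHT in siCtrl cells was called higher with duplicate removal undone. The gene has 824 exon bases and 62 to 432 reads a library, so its values are less precise than those of the longer subunits.

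The other polymerase III subunits had higher values by less than the limit. With OHT in siCtrl cells at 48 h the log2 fold changes were 0.45 for POLR3C, 0.34 for POLR3E, 0.32 for POLR3A, 0.30 for POLR3F, 0.25 for POLR3D and 0.25 for POLR3B. All of these passed on adjusted p alone and none was called, POLR3A, POLR3C and POLR3E, whose promoters hold CACGTG, among them. The largest subunit POLR3A was at 13.9, 13.6 and 16.4 eRPKM in siCtrl and at 17.4, 18.6 and 18.9 in siCtrl OHT cells at 48 h. It was at 13.5 and 12.7 eRPKM in siRAD21 and at 17.2 and 16.4 in siRAD21 OHT cells. Libraries with and without OHT did not overlap under either siRNA. At 24 h POLR3A was at 18.9 and 18.8 eRPKM in siCtrl, 22.7 and 21.7 in siCtrl OHT, 15.6 and 16.2 in siRAD21 and 19.3 and 18.4 in siRAD21 OHT cells.

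At 24 h OHT in siCtrl cells gave 1 subunit called higher, POLR3G, against 3.68% of all genes, and none lower, against 5.1%. On adjusted p alone 12 subunits were higher (12.5% of all genes) and 1, POLR3GL, lower (14% of all genes). The median log2 fold change was 0.16 for the subunits and -0.01 for all genes, with 0.24 for POLR1, 0.12 for POLR2 and 0.22 for POLR3 genes. Without siCtrl 24 h replicate 1 or siCtrl OHT 24 h replicate 1, POLR3K was called higher in addition. Without siCtrl 24 h replicate 2, POLR3GL was called lower in addition. The effect at 48 h minus that at 24 h was called higher for POLR3G alone (0.53, SE 0.09, adjusted p = 5.64e-03, limma). This is 1 of 29 subunits against 0.714% of all genes, with none lower against 1.06%. The call on POLR3G does not hold without siCtrl 24 h replicate 2 (0.48), siCtrl 48 h replicate 1 (0.49) or siCtrl OHT 48 h replicate 3 (0.49), or with quantile normalization (0.43), and the count was then 0. It was 2 without siCtrl 24 h replicate 1, siCtrl 48 h replicate 2 or 3, or siCtrl OHT 48 h replicate 1.

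The comparison of siRAD21 with siCtrl cells asks what loss of RAD21 does without OHT. At 48 h POLR3GL rose, and POLR3K, POLR3G and POLR2C fell. This is 1 of 29 subunits called higher, against 12.6% of all genes, and 3 lower, against 11.2%, so neither share was above the background. The median log2 fold change was -0.15 for the subunits and -0.01 for all genes, and 7 of 29 were above 0, against 48.6% of all genes. On adjusted p alone 2 subunits were higher (27.2% of all genes) and 12 lower (30.5% of all genes). The log2 fold change was -1.06 for POLR3K (SE 0.118, adjusted p = 3.72e-06, limma) and -0.61 for POLR3G (SE 0.063, adjusted p = 1.75e-06, limma). It was 1.04 for POLR3GL (SE 0.117, adjusted p = 3.97e-06, limma), a 2.06-fold rise. The endothelial markers PECAM1, CDH5 and VWF summed to 2.34 to 2.36 eRPKM in siRAD21 and 1.21 to 1.56 in siCtrl cells at 48 h, none of them being at 0, and their part in the result was not tested.

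Among the subunits specific to polymerase II, 6 of 7 had lower values with siRAD21 at 48 h, against 7706 of all 14993 genes tested. POLR2C, which pairs with POLR2J in the assembly platform of polymerase II, was at 47.6, 48.6 and 48.4 eRPKM in siCtrl and at 31.7 and 31.3 in siRAD21 cells at 48 h. With OHT it was at 52.2, 57.2 and 55.8 eRPKM in siCtrl and at 45.6 and 43.3 in siRAD21 cells. The siRAD21 libraries were far below all others, and the log2 fold change of -0.61 (SE 0.056, adjusted p = 6.11e-07, limma) was lost as a call, at -0.50, with quantile normalization, as it was with a fold change limit of 1, and held whichever library was left out. At 24 h POLR2C was at 51.5 and 46.2 eRPKM in siCtrl, 52.3 and 56.7 in siCtrl OHT, 39.4 and 39.0 in siRAD21 and 45.7 and 50.2 in siRAD21 OHT cells. Values for the other polymerase II subunits at 48 h were -0.44 for POLR2G, -0.41 for POLR2J, -0.38 for POLR2I, -0.22 for POLR2D, -0.14 for POLR2B and 0.36 for POLR2A on the log2 scale. All of these but POLR2A passed downward on adjusted p alone.

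Subunits common to all enzymes had log2 fold changes of -0.29 (POLR2F), -0.28 (POLR2E), -0.14 (POLR2H), -0.05 (POLR2L) and -0.01 (POLR2K) at 48 h. The POLR1 genes lay between -0.19 (POLR1A and POLR1B) and 0.23 (POLR1D), with POLR1E at -0.12. Without POLR3G, POLR3GL and POLR3K, the 7 other POLR3 genes ranged from -0.16 to 0.05 and none passed on adjusted p alone.

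At 24 h siRAD21 gave no subunit called in either direction by limma, against 5.83% of all genes higher and 2.6% lower. At an unadjusted p below 0.05 there were 11 subunits (37.9%, against 36.9% of all genes), on adjusted p alone 1 was higher (14% of all genes) and 6 lower (11.8% of all genes), and voom on the recovered reads also called 0. Among all genes called at 24 h, 69.2% were higher, and 55.5% with quantile normalization. The median of the subunits was -0.11, and 3 of 29 were above 0, against 50.4% of all genes. Without siCtrl 24 h replicate 1 POLR3GL was called higher, a count of 1. The siRAD21 effect at 48 h minus that at 24 h was called higher for POLR3GL (0.62, SE 0.174, adjusted p = 0.021, limma) and lower for POLR3K (-0.87, SE 0.175, adjusted p = 2.95e-03, limma). This is 1 subunit higher, against 3.85% of all genes, and 1 lower, against 6.86%. For POLR3GL the call does not hold without siCtrl 24 h replicate 1 (0.40), siRAD21 24 h replicate 1 (0.61) or 2 (0.63), or siRAD21 48 h replicate 2 (0.54), or with only the compared groups in the fit (0.62).

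To see whether MycER acts on the subunits when RAD21 is depleted, siRAD21 OHT cells were compared with siRAD21 cells. At 48 h POLR3G, POLR3K, POLR1B, POLR1C, POLR2H, POLR1E and POLR2D rose, and POLR2A and POLR3GL fell. This is 7 of 29 subunits called higher, against 12.4% of all genes, and 2 lower, against 16.2%. On adjusted p alone 24 were higher (30.5% of all genes) and 3 lower (29.9% of all genes), and 25 had a fold change above 0, against 48.6% of all genes. The median log2 fold change was 0.37 for the subunits and -0.02 for all genes, with 0.64 for POLR1, 0.34 for POLR2 and 0.38 for POLR3 genes. This comparison shares its siRAD21 libraries with that of siRAD21 against siCtrl. The endothelial markers summed to 2.34 to 2.36 eRPKM in siRAD21 and 1.12 to 1.29 in siRAD21 OHT cells at 48 h, and their part in the result was not tested. At 24 h POLR3G and POLR1B were called higher, 2 of 29 subunits against 4.29% of all genes, and none lower, against 7.62%. On adjusted p alone 17 were higher (16.9% of all genes) and 1 lower (18.2% of all genes). Among all genes called at 24 h, 36.0% were higher, and 48.6% with quantile normalization. Without siRAD21 OHT 24 h replicate 1 the count was 4, with POLR1C and POLR2H added, and without siRAD21 24 h replicate 2 it was 1.

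POLR2D and POLR2H were called with OHT in siRAD21 cells and not in siCtrl cells, and neither was called in the test of that difference, the interaction, which POLR2D passed on adjusted p alone. POLR2D, which forms the stalk of polymerase II with POLR2G, was at 45.9 and 47.6 eRPKM in siRAD21 and at 71.4 and 70.2 in siRAD21 OHT cells at 48 h. In siCtrl cells it was at 51.7, 55.7 and 56.0 eRPKM without and 68.3, 72.4 and 72.2 with OHT. The OHT libraries were higher under both siRNAs, with log2 fold changes of 0.59 (SE 0.049, adjusted p = 2.33e-07, limma) and, in siCtrl cells, 0.38, which was not called. At 24 h POLR2D was at 59.2 and 56.5 eRPKM in siCtrl, 65.2 and 67.0 in siCtrl OHT, 53.5 and 55.1 in siRAD21 and 64.6 and 68.6 in siRAD21 OHT cells.

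POLR2H, a small subunit of all the polymerases, was at 50.1 and 55.8 eRPKM in siRAD21 and at 83.8 and 82.5 in siRAD21 OHT cells at 48 h. In siCtrl cells it was at 57.9, 62.9 and 55.0 eRPKM without and 75.6, 87.5 and 86.2 with OHT. Again no library without OHT reached one with it, and the log2 fold change was 0.65 (SE 0.085, adjusted p = 1.75e-05, limma) in siRAD21 cells and 0.50 in siCtrl cells, where it lay on the limit and was not called. At 24 h POLR2H was at 66.8 and 61.8 eRPKM in siCtrl, 75.4 and 81.3 in siCtrl OHT, 59.6 and 56.5 in siRAD21 and 73.2 and 83.0 in siRAD21 OHT cells. The calls with OHT in siRAD21 cells were lost with quantile normalization for POLR1E (0.47), POLR2D (0.41) and POLR2H (0.43), and for POLR2D (0.44) and POLR2H (0.46) with the trend on GC content and length removed. Subunits not called in this comparison had log2 fold changes of 0.49 for POLR2C, 0.47 for POLR2E, 0.40 for POLR2G, 0.37 for POLR2I, 0.36 for POLR2F, 0.33 for POLR2J, 0.32 for POLR2L, 0.24 for POLR2B, 0.06 for POLR2K, -0.17 for POLR2J2 and -0.44 for POLR2J4. Of the POLR3 genes not called, values were 0.47 for POLR3C, 0.40 for POLR3D, 0.36 for POLR3F, 0.35 for POLR3A, 0.25 for POLR3E and 0.25 for POLR3B.

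POLR2A, the largest subunit of polymerase II, had a lower value with OHT in siRAD21 cells at 48 h, and this depended on single libraries. At 48 h it was at 15.02, 8.87 and 10.5 eRPKM in siCtrl, 16.1, 8.86 and 8.49 in siCtrl OHT, 17.3 and 12.1 in siRAD21, and 9.05 and 8.78 in siRAD21 OHT cells. The replicate 1 libraries of siCtrl, siCtrl OHT and siRAD21 were higher than the others of their group by 0.61, 0.85 and 0.50 on the log2 scale. Of 10906 genes with a mean of at least 5 eRPKM, only 0.66, 0.403 and 0.559% differed more in that direction. In siRAD21 OHT cells the same difference was 0.04. At 24 h POLR2A was at 13.3 and 13.7 eRPKM in siCtrl, 15.3 and 14.6 in siCtrl OHT, 14.5 and 13.4 in siRAD21 and 16.0 and 16.4 in siRAD21 OHT cells. All 8 of these libraries lay between 13.3 and 16.4 eRPKM. The log2 fold change with OHT in siRAD21 cells at 48 h, -0.67 (SE 0.259, adjusted p = 0.038, limma), was not called without siRAD21 48 h replicate 1 (-0.42) or without either siRAD21 OHT 48 h replicate (-0.69 and -0.65), with these averaged (-0.67), with all genes above 0 tested (-0.67), or with the trend on GC content and length removed (-0.47).

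POLR1A was at 23.5, 18.5 and 20.7 eRPKM in siCtrl and at 30.7, 26.2 and 24.4 in siCtrl OHT cells at 48 h. It was at 19.9 and 16.6 eRPKM in siRAD21 and at 25.2 and 24.5 in siRAD21 OHT cells. Libraries with OHT were above those without it under each siRNA, with log2 fold changes of 0.37 and 0.44, neither of them called. The second was called without siRAD21 48 h replicate 1 (0.57) and with the trend on GC content and length removed (0.59). At 24 h POLR1A was at 23.4 and 25.4 eRPKM in siCtrl, 27.5 and 27.5 in siCtrl OHT, 20.3 and 20.5 in siRAD21 and 27.7 and 24.7 in siRAD21 OHT cells.

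**Figure D5:**
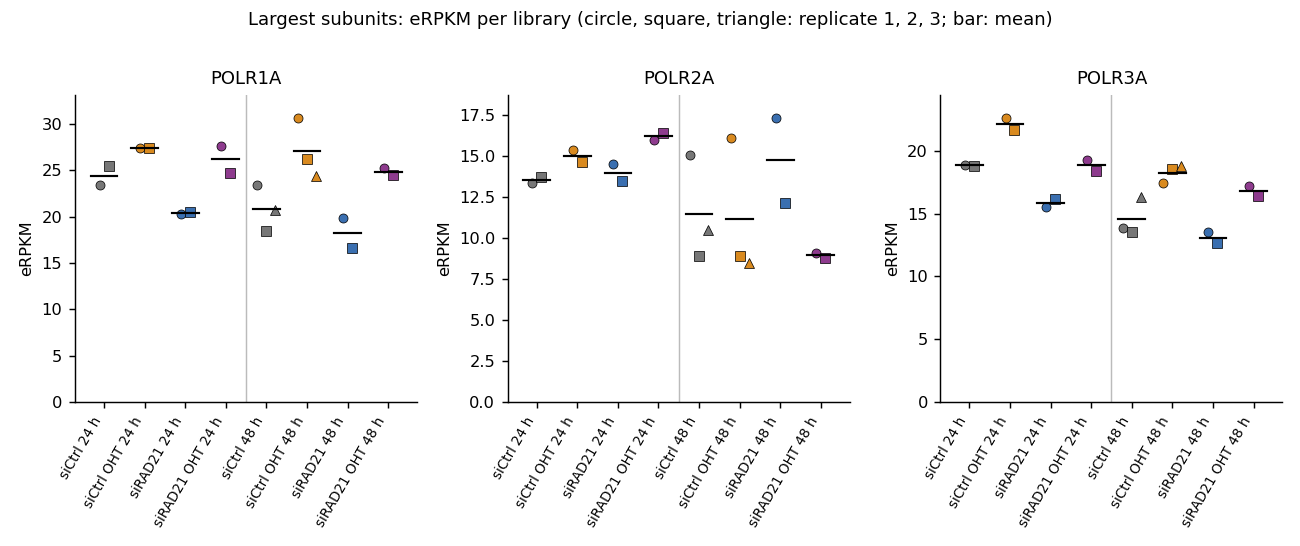
eRPKM of the largest subunits POLR1A, POLR2A and POLR3A in each library of the 8 groups, with bars for group means and symbols for replicates 1, 2 and 3. For POLR2A at 48 h, circles (replicate 1) of siCtrl, siCtrl OHT and siRAD21 stand at 15.02, 16.1 and 17.3 eRPKM, above the other libraries of their groups.

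Whether OHT acted differently with and without RAD21 was asked with the siRNA by OHT interaction. At 48 h it was called higher for POLR3G (0.85, SE 0.09, adjusted p = 4.65e-05, limma) and POLR3K (0.72, SE 0.167, adjusted p = 9.69e-03, limma). This is 2 of 29 subunits, against 3.33% of all genes, and none was lower, against 3.97%. Both rose with OHT under either siRNA and fell with siRAD21 alone. For POLR3K the value is 0.50, and not called, without siRAD21 48 h replicate 2, which leaves a count of 1. On adjusted p alone POLR2C (0.30) and POLR2D (0.21) came in addition, 4 subunits or 13.8%, against 17.3% of all genes. At 24 h limma called 0 subunits and 0% of all genes higher, and 0% lower. At an unadjusted p below 0.05 there were 2 subunits (6.9%) and 906 genes (6.04%), and voom called 0 subunits.

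Cells with both treatments were then compared with siCtrl cells. At 48 h POLR3G, POLR1C, POLR1B, POLR1E, POLR2H and POLR3GL were called higher, 6 of 29 subunits against 13.1% of all genes, and none was lower, against 14.9%. The log2 fold change was 1.65 for POLR3G (SE 0.063, adjusted p = 7.72e-11, limma), 0.82 for POLR1C and 0.71 for POLR1B. It was near the limit for POLR1E (0.52), POLR2H (0.50) and POLR3GL (0.50), which are not called with quantile normalization or with the trend on GC content and length removed. The call on POLR2H is also lost with the replicate block (0.495), with a pseudocount of 1 (0.5), and without siCtrl 48 h replicate 1 (0.50) or 3 (0.46) or siRAD21 OHT 48 h replicate 1 (0.49). That on POLR3GL is lost with a pseudocount of 1 (0.49) and without siCtrl 48 h replicate 1 (0.41) or siRAD21 OHT 48 h replicate 2 (0.43). POLR3GL was at 23.3 and 25.7 eRPKM with both treatments, between siCtrl and siRAD21 cells. Medians were 0.52 for POLR1, 0.02 for POLR2 and 0.36 for POLR3 genes, beside -0.002 for all genes. At 24 h POLR3G was called higher (0.95, SE 0.069, adjusted p = 1.97e-07, limma), 1 of 29 subunits against 6.62% of all genes, and none lower, against 6.51%.

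In siCtrl cells at 48 h compared with 24 h, POLR3K and POLR3B fell, 2 of 29 subunits called lower against 6.91% of all genes, and none was higher, against 5.53%, so the share lower was that of all genes. The second largest subunit POLR3B was at 10.6 and 11.9 eRPKM at 24 h and at 6.28, 6.83 and 7.29 at 48 h, or -0.68 on the log2 scale (SE 0.082, adjusted p = 2.31e-05, limma). With OHT it was at 12.6 and 11.5 eRPKM at 24 h and at 7.54, 8.08 and 8.85 at 48 h in siCtrl cells. In siRAD21 cells it went from 10.9 and 9.95 to 6.17 and 5.97 eRPKM without OHT and from 10.6 and 9.79 to 7.42 and 7.25 with OHT. POLR3B was lower at 48 h in all 4 pairs of groups, and no library at 48 h reached one at 24 h. POLR3K fell by 0.70 on the log2 scale in siCtrl cells (adjusted p = 3.30e-04, limma). The median was -0.28 for POLR3, -0.30 for POLR1 and -0.04 for POLR2 genes, beside -0.04 for all genes. On adjusted p alone 48.3% of the subunits and 45.2% of all genes passed. Of 29 subunits 22 were below 0, against 8431 of all 14993 genes tested, or 17 with libraries centred on their median. Among all genes called, 44.5% were higher, and 63.4% with this centring.

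Genes of the polymerase machinery outside the rule were described from lists. The subunits named otherwise, CD3EAP and TWISTNB of polymerase I, ZNRD1 of polymerase I and CRCP of polymerase III, had a median log2 fold change of 0.44 with OHT in siCtrl cells at 48 h, and 2 of 4 were called higher, against 7.78% of all genes. CD3EAP, the partner of POLR1E, was at 11.5 ± 0.75 eRPKM (n = 3) in siCtrl and 19.0 ± 0.593 (n = 3) in siCtrl OHT cells (0.70, adjusted p = 8.19e-08, limma). TWISTNB, in the stalk of polymerase I, was at 27.5 ± 2.19 and 43.9 ± 2.79 eRPKM (n = 3 each; 0.66, adjusted p = 2.68e-07, limma). With OHT in siRAD21 cells they were called again, at 0.83 and 0.78.

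Factors that work with the enzymes gave few calls. The lists held 7 polymerase I initiation factors, 18 general factors of polymerase II, 16 factors of polymerase III and 6 assembly factors. With OHT in siCtrl cells at 48 h 0, 0, 1 and 0 were called higher, against 7.78% of all genes. None was called lower, against 10.1%. Medians were 0.20, 0.16, 0.16 and 0.26 in this order, beside -0.01 for all genes. The call was SNAPC4, the largest subunit of the complex that recruits polymerases to small nuclear RNA genes (0.66, adjusted p = 2.12e-05, limma). The broad upward shift seen in the subunits was present here too. In the same order 85.7, 88.9, 87.5 and 100% of the factors lay above 0, against 48.2% of all genes. On adjusted p alone 5, 9, 8 and 4 were higher (26.1% of all genes) and 0, 1, 0 and 0 lower (27.2%). With siRAD21 at 48 h, 3 of these genes were called lower, a smaller share than the 11.2% of all genes. They were GPN3, a GTPase needed to assemble and import polymerase II (-0.74, adjusted p = 7.06e-08, limma), RPAP3, part of a chaperone complex that assembles the polymerases (-0.61, adjusted p = 3.05e-06, limma), and GTF2E2, the beta subunit of TFIIE (-0.52, adjusted p = 2.27e-06, limma). GPN3 was at 16.5 ± 0.963 eRPKM (n = 3) in siCtrl and 9.70 ± 0.347 (n = 2) in siRAD21 cells, and with OHT in siRAD21 cells it rose to 17.96 eRPKM (0.85, adjusted p = 4.99e-08, limma).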

How the data were processed

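RNA-seq of 18 U2OS-MycER libraries was analysed. According to the labels and methods, the authors depleted ribosomal RNA, made TruSeq v2 libraries (strand not stated), trimmed and masked reads, aligned them to hg19 with TopHat2 (2.0.8 in the submitters' processing notes, which also list featureCounts 1.4.5), removed PCR duplicates, and deposited RPKM over exons (eRPKM) for 23399 genes. The annotation used for counting is not given in the sources used here. The authors called differential expression with DESeq2.

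Groups came from the labels. Whole reads, exon lengths and depths were recovered from the values (22040 genes, all within 0.05 reads of whole numbers, with depth from 2728 low genes). Duplicate removal limits eRPKM to between 157.7 and 207.3 if 1 read is kept per position and strand, so high values are compressed.

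Values entered limma 3.58.1 (R 4.3.3) as log2(eRPKM + 0.5), with 8 group means, a variance trend, no block, and Benjamini-Hochberg adjustment over 14993 genes. Thresholds were those of the study. Figures were drawn with matplotlib 3.10.9 and tables made with numpy 2.4.6 and pandas 2.3.3 under Python 3.11.15. On simulated reads for OHT in siCtrl cells at 48 h (14993 genes), 86 of 100 genes at a log2 fold change of 0.8, 98 of 100 at 1.5 and 7 of 14793 unchanged genes were called. The simulation gave every gene the same dispersion and changed few genes, in this group only. It held no duplicate removal and no deviations shared between libraries, so these rates may not hold for the real libraries.

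The subunits, lists and tests were chosen with earlier results of these data known. The text names the subunits with their levels (some genes are not reported here, though counts and medians include all subunits tested), gives each library for those called in any comparison and for the largest subunits, and takes at most 3 called genes from each list of factors. Same-numbered siCtrl and siCtrl OHT libraries at 48 h deviate together (correlations 0.258, 0.130 and 0.157). Those of siRAD21 at 48 h do so with siCtrl (0.099 and 0.146) and siCtrl OHT (0.168 and 0.111). For siRAD21 OHT at 48 h the values were -0.001 and -0.021 with siCtrl and -0.026 and 0.032 with siCtrl OHT. A replicate block was therefore an alternative. Between groups at 24 h the correlations ran from -0.169 (siCtrl with siRAD21 OHT) to 0.071 (siCtrl with siRAD21). The block fits 1 effect per replicate number over both times, so it cannot fully take up deviations shared at 48 h alone. Other alternatives were pseudocounts of 1 and 0.1, testing every gene above 0 or those averaging 5 eRPKM or more, median centring, quantile normalization, only the groups compared, averaging the siRAD21 OHT 48 h libraries, voom on the recovered reads, fold change limits of 0 and 1, and leaving out each library. Undoing duplicate removal, and removing a trend on GC content and length (90.4% of genes have a GC content), were chosen after seeing the data. Positions and shared exons came from GENCODE v44 lifted to GRCh37. Gene symbols in RefSeq promoters were matched for 21 of 31 subunits.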

Additional observations from a re-analysis of the deposited data

Results flagged for a closer look

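An effect was called as different between siRNAs or times, by a test of the difference itself, for 3 subunits, all of polymerase III. On adjusted p alone POLR2C and POLR2D also passed in the interaction at 48 h. POLR1B (0.483) and POLR1C (0.337) did so for the OHT effect at 48 h minus 24 h. OHT changed POLR3G by 0.846 more on the log2 scale in siRAD21 than in siCtrl cells at 48 h, and POLR3K by 0.718 more. The change of POLR3G with OHT in siCtrl cells was 0.532 larger at 48 h than at 24 h. The effect of siRAD21 at 48 h exceeded that at 24 h by 0.619 for POLR3GL, and for POLR3K the difference was -0.868. Of all genes, 3.33% were called higher in the interaction and 0.714% in the OHT effect over time. For the siRAD21 effect over time 3.85% were called higher and 6.86% lower. Leaving out single libraries ended the calls on POLR3K in the interaction, on POLR3G over time and on POLR3GL. No library was tested as an outlier, since no group has 4 libraries.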

How the results depend on the processing

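With no fold change limit, the number of subunits called was 13 for OHT in siCtrl cells at 24 h, 23 at 48 h, 7 and 14 for siRAD21, 18 and 27 for OHT in siRAD21 cells, 9 and 20 for siRAD21 OHT against siCtrl, 4 for the interaction at 48 h, 3 for the OHT effect at 48 h minus 24 h, 5 for that of siRAD21 and 14 for siCtrl cells over time. In the same order the share of all genes past this test was 26.5, 53.3, 25.8, 57.7, 35.2, 60.4, 34.4, 59.7, 17.3, 4.17, 21.6 and 45.2%, and that of the subunits 44.8, 79.3, 24.1, 48.3, 62.1, 93.1, 31, 69, 13.8, 10.3, 17.2 and 48.3%. With a limit of 1 the counts were 0, 1, 0 and 2, 1 and 2, 0 and 1, 0, 0, 0 and 0, the interaction at 24 h having 0 in both cases. With duplicate removal undone, 3 subunits were called with OHT in siCtrl and 4 in siRAD21 cells at 24 h, and 2 for the OHT effect at 48 h minus 24 h, which also had 2 with centring or with the trend on GC content and length removed and 0 with quantile normalization. The last 2 settings gave 3 for siRAD21 OHT against siCtrl at 48 h, and only the groups compared gave 1 for the siRAD21 effect at 48 h minus 24 h. The counts with OHT at 48 h, 5 in siCtrl and 9 in siRAD21 cells in the main fit, moved as well. They were 7 and 12 with duplicate removal undone, 7 and 10 with centring, and 5 and 6 with quantile normalization. Shares of all genes for the limit of 1, for these settings and with libraries left out are not reported here. The counts alone therefore do not tell a move of the subunits from a move of all genes.

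Leaving out each library gave ranges of 1 to 2 subunits (OHT in siCtrl cells at 24 h), 5 to 6 (48 h), 0 to 1 (siRAD21 at 24 h), 4 to 4 (48 h), 1 to 4 (OHT in siRAD21 cells at 24 h), 8 to 10 (48 h), 1 to 1 (siRAD21 OHT against siCtrl at 24 h), 4 to 6 (48 h), 1 to 2 (interaction at 48 h), 0 to 2 (OHT effect, 48 h minus 24 h), 1 to 2 (siRAD21 effect) and 2 to 3 (siCtrl over time). The change of POLR2A with OHT in siCtrl cells at 48 h, -0.06, ran from -0.349 without siCtrl OHT 48 h replicate 1 to 0.141 without siCtrl 48 h replicate 1, 0.064 without siCtrl OHT 48 h replicate 2 and 0.093 without siCtrl OHT 48 h replicate 3. The replicate block ended the call on POLR2H in cells with both treatments at 48 h (0.495) and no other call on a subunit. Averaging the siRAD21 OHT 48 h libraries ended the call on POLR2A with OHT in siRAD21 cells, which left 8 subunits. The counts at 48 h stayed at 6 for siRAD21 OHT against siCtrl and 2 for the interaction. POLR3G kept its call with OHT in siCtrl and siRAD21 cells and with siRAD21 at 48 h under the 12 settings that keep the fold change limit and with each of the 18 libraries left out, while a limit of 1 ended the call with siRAD21. The causes were not tested.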
